A study of Homo sapiens with 16 samples.

Results

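Amino acid transporters are the membrane proteins that carry amino acids into and out of the cell. Here 10 of them were followed in SUM-225, a breast cancer cell line with amplified and over-expressed HER2 (ERBB2), while its HER2 kinase activity was inhibited. Their probes were all those whose gene symbol in the deposited table was SLC7A5, SLC3A2, SLC7A11, SLC7A1, SLC38A1, SLC38A2, SLC1A4, SLC1A5, SLC6A9 or SLC43A1, which gave 15 probes for these 10 genes, of 24526 probes for 18631 gene symbols on the array. Parallel cultures of the same line received 1 µM CP724,714 (a small molecule inhibitor of the HER2 kinase). Per the labels the medium was Ham's F-12 with fetal bovine serum, insulin and hydrocortisone. The study describes this line as kept in serum-free medium without insulin, and these differences were not resolved here. RNA was taken every 3 h from 0 to 45 h and each of the 16 time points was measured on 1 array, so no time point had a replicate. No untreated cultures were analysed here beside the treated ones, so a change with hours of inhibitor and a change with hours in culture cannot be told apart.

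Essential and bulky neutral amino acids enter tumour cells largely through LAT1, which is made of the transport subunit SLC7A5 and the glycoprotein SLC3A2 that brings it to the cell surface. SLC3A2 is also the partner of SLC7A11, with which it forms the cystine and glutamate exchanger that feeds glutathione synthesis. SLC7A1 carries arginine and lysine, SLC38A1 and SLC38A2 take up glutamine and alanine with sodium, SLC1A4 and SLC1A5 exchange small neutral amino acids (glutamine in the case of SLC1A5), SLC6A9 takes up glycine, and SLC43A1 is a sodium-independent carrier of branched-chain amino acids. Many of these genes are known targets of the stress-induced factor ATF4, and several also of MYC.

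The probes' signals reached from near the background to well into the upper range of the array. The highest signal of the SLC7A5 probe was 39.5% of that array's brightest, so none of the transporter probes was at the top of the scale. Of the 15 probes, 11 had a detection p-value under 0.05 (a signal above nearly all of the array's negative control probes) on at least 11 arrays, SLC1A4 on 9 arrays and SLC43A1 on 3, and 2 of the 3 SLC6A9 probes (ILMN_2252701 and ILMN_1754262) on none. Those 2 probes, with signals between 159 and 251, were not tested, which left 13 tested probes and at least 1 for each gene. The cells carried the markers of the line. The ERBB2 probe read 68950 to 72060 on all 16 arrays, next to the brightest signals of 71727 to 74152, and KRT19, KRT8, KRT18, EPCAM and GRB7 were detected on every array. Of 8 markers of fibroblasts, blood and endothelial cells, COL3A1 and PTPRC were detected on 0 arrays, CD3D and CDH5 on 1, COL1A1 and COL1A2 on 5, and CD14 and PECAM1 on 16.

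Intensities are given below either as deposited signals or as normalised log2 values, and they were compared only within a probe. All 16 values of the 10 transporters are drawn in the plot of their courses. The arrays also fell into 4 sets of 4 consecutive time points (0 to 9, 12 to 21, 24 to 33 and 36 to 45 h), which were noticed in the data and which the labels do not name. The root mean square step between consecutive arrays over the 16110 tested probes was 0.416 at 9 to 12 h, 0.363 at 21 to 24 h and 0.325 at 33 to 36 h, against 0.258 to 0.304 for the 8 steps between 12 and 45 h that lay within a set, other than the 0.418 at 42 to 45 h, and 0.355 to 0.397 within the first set. Changes at the borders of these sets and a difference in how the sets were handled cannot be told apart.

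**Figure D1:**
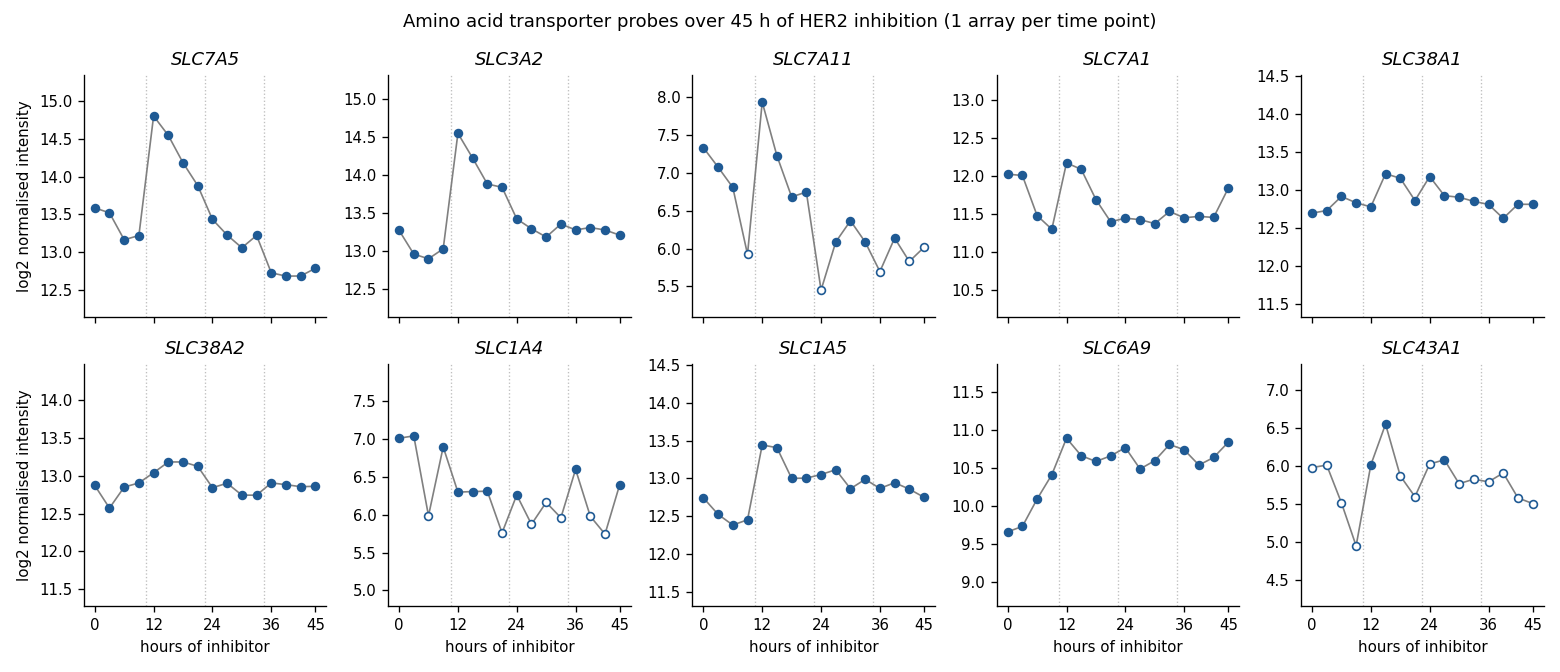
Normalised log2 intensity (y axis, the same span in every panel) against hours of inhibitor (x axis) for the brightest probe of each transporter, 1 array per point. Filled points had a detection p-value under 0.05, open points did not, and dotted lines mark the borders of the 4 sets of arrays. SLC7A5, SLC3A2, SLC7A11, SLC7A1, SLC1A5 and SLC6A9 were all highest at 12 h.

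The pattern that 6 of the 10 transporters had in common was a value at 9 h below that at 0 h and a sudden high at 12 h or, for SLC43A1, 15 h. The share of all tested probes with this pattern was not recorded. Of the 13 tested transporter probes 8 were highest at 12 h, where 5.39% of all tested probes were. At 12 h SLC7A1 and SLC43A1 were only 0.15 and 0.03 above their 0 h values on the log2 scale, and SLC43A1 was not detected from 0 to 9 h. The probe of SLC7A5 (ILMN_1720373) gave signals of 12228, 6721 and 9450 after 0, 6 and 9 h, then 29279 at 12 h, and 5617 at the end. On the normalised log2 scale it read 13.59, 13.52, 13.17 and 13.22 from 0 to 9 h and 14.80, 14.54, 14.18 and 13.88 from 12 to 21 h. It continued at 13.43, 13.23, 13.06 and 13.22 from 24 to 33 h and ended at 12.73, 12.69, 12.69 and 12.79 from 36 to 45 h. SLC7A5 thus stood 2.98-fold higher at 12 h than at 9 h, all 4 values from 12 to 21 h lay above the other 12, and by 45 h it was 4.02-fold below its 12 h value.

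SLC3A2, the partner of SLC7A5, had the same high at 12 h but a different end. Its brightest probe (ILMN_1726456) read 13.27, 12.96, 12.89 and 13.02 from 0 to 9 h and 14.55, 14.22, 13.88 and 13.84 from 12 to 21 h, 2.88-fold higher at 12 h than at 9 h. It then settled at 13.42, 13.29, 13.18 and 13.35 from 24 to 33 h and at 13.27, 13.31, 13.27 and 13.21 from 36 to 45 h, close to where it began. At 45 h this probe was at -0.06 against its 0 h value and ILMN_1679041 at 0.48, so the end level differed between these probes. ILMN_2317658 was at 0.01, 0.07 and 0.16 at 36, 39 and 42 h, and at -0.53 on the 45 h array alone. The other 2 probes of SLC3A2, ILMN_1679041 and ILMN_2317658, were 2.91-fold and 2.98-fold higher at 12 h than at 9 h, and all 3 probes had their 4 values from 12 to 21 h above the other 12. Across the 16 time points the 3 probes correlated with one another at Pearson's r between 0.86 and 0.94, as a description of probes read on the same arrays.

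SLC7A11, the transport subunit of the cystine exchanger, was dim and its course should be read with that in mind. Its probe (ILMN_1655229) had signals between 190 and 415 and was detected on 11 of 16 arrays. The normalised log2 values declined from 7.33 at 0 h through 7.07 and 6.81 to 5.92 at 9 h, reached 7.93 at 12 h, and came down through 7.22, 6.68 and 6.75 to 5.45 at 24 h. From 27 to 45 h they lay between 5.70 and 6.37. The 12 h value was 4.02-fold the 9 h value, which itself was not detected above background, and without background correction the same step was 0.86 on the log2 scale in place of 2.01.

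The remaining carriers moved less. SLC1A5 (ILMN_1707720), an exchanger of glutamine, read 12.74, 12.53, 12.38 and 12.45 from 0 to 9 h, 13.44 and 13.41 at 12 and 15 h, and between 12.75 and 13.11 from 18 to 45 h. It was 1.98-fold higher at 12 h than at 9 h. SLC7A1 (ILMN_1683859), the arginine and lysine carrier, read 12.03, 12.01, 11.48 and 11.30 from 0 to 9 h and 12.17, 12.09, 11.69 and 11.40 from 12 to 21 h, 1.83-fold higher at 12 h than at 9 h, and then stayed between 11.37 and 11.53 until it read 11.84 at 45 h. SLC43A1 (ILMN_1780924), a carrier of branched-chain amino acids, was detected on 3 arrays, at 12, 15 and 27 h, and its 2.10-fold step from 9 to 12 h started from its lowest value of 4.94.

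The glutamine carriers SLC38A1 and SLC38A2 and the neutral amino acid exchanger SLC1A4 did not share the step. SLC38A2 (ILMN_1651799) stayed between 12.57 at 3 h and 13.18 at 15 h, a 1.52-fold range, yet its 4 values from 12 to 21 h (13.04, 13.18, 13.18 and 13.12) were all above the other 12. SLC38A1 (ILMN_1769911) ranged from 12.62 at 39 h to 13.21 at 15 h and was 0.05 lower at 12 h than at 9 h on the log2 scale. SLC1A4 (ILMN_1656904) had its highest values, 7.01 and 7.04, at 0 and 3 h, and read 6.89 at 9 h and 6.30 at 12 h, within signals of only 201 to 292.

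SLC6A9, the glycine transporter, climbed earlier than the rest. Its detected probe (ILMN_1714445) read 9.66, 9.73, 10.09 and 10.41 from 0 to 9 h and 10.89 at 12 h, and all 15 later values were above the value at 0 h. From 15 to 45 h it lay between 10.49 and 10.84 with no further climb, and at 45 h it was 2.27-fold above 0 h.

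Of the 13 tested transporter probes, 6 were at least 2-fold higher at 12 h than at 9 h, where 1.16% of all tested probes were. These 6 were SLC7A5, the 3 probes of SLC3A2, SLC7A11 and SLC43A1, so they stood for 4 of 10 genes. No transporter probe was 2-fold higher than the array before at any of the other 14 steps. The median step from 9 to 12 h was 0.93 over the brightest probes of the 10 transporters and 0.01 over all tested probes. All 4 values from 12 to 21 h lay above the other 12 for 5 of 13 transporter probes (SLC7A5, the 3 of SLC3A2, and SLC38A2), where 1.2% of all tested probes had this order. These comparisons were chosen after the courses had been seen, rest on single arrays at 9 and 12 h and carry no test, and the step lies on the border of the first and second sets of arrays. Without background correction the 6 probes became 4, since SLC7A11 (0.86 on the log2 scale) and SLC43A1 (0.48) fell short, while SLC7A5 and the brightest SLC3A2 probe were 1.56 and 1.51 higher.

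**Figure D2:**
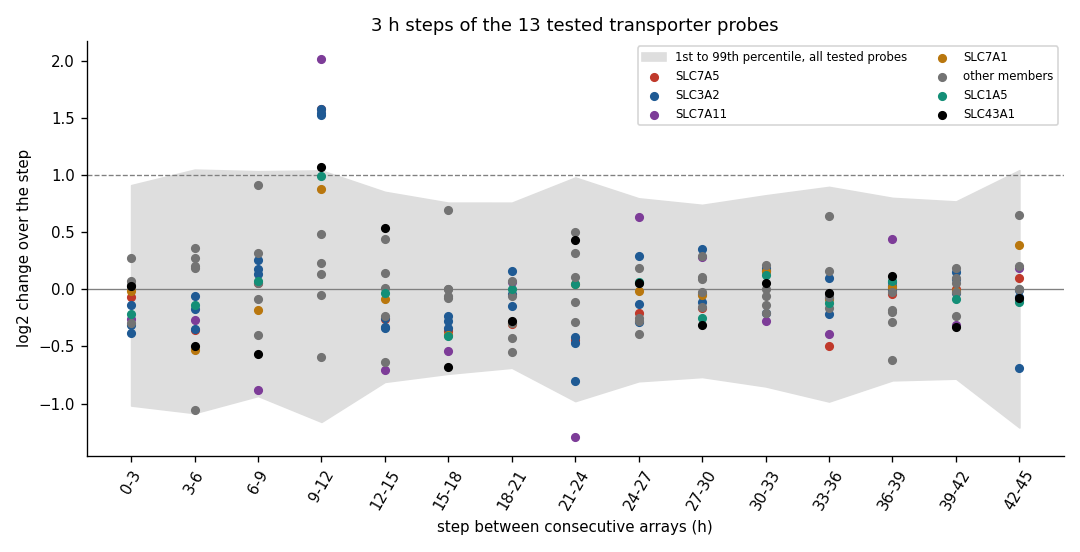
Log2 change between consecutive arrays (y axis) for each of the 15 steps of 3 h (x axis), with 1 point for each of the 13 tested transporter probes, the 1st to 99th percentile of all tested probes in grey and a 2-fold rise as a dashed line. At 9 to 12 h 6 points lie above the dashed line, led by SLC7A11 at 2.01, and at the other steps none does.

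Promoter windows of transporters that shared the 12 h high are given because these genes moved together. The RefSeq windows of GRCh38.p14 reach from 250 bases before to 50 bases after a transcription start, and 9 of the 10 transporters had 1 to 3 of them, 16 in all. They were searched on both strands for TGATGNAA, the element bound by ATF4 with C/EBP partners, for TGACNNNGC, the core of the antioxidant response element bound by NRF2, and for CACGTG, the E-box bound by MYC with MAX. The sequences below are the 250 bases before a start, read 5′ to 3′ in the direction of the gene, and capitals mark the matches within them. Only windows with a match in these bases are shown. The other windows of SLC3A2, SLC1A5 (among them its most upstream) and SLC43A1 held no match, nor did that of SLC6A9.
SLC7A5, chr16:87869508-87869757, minus strand: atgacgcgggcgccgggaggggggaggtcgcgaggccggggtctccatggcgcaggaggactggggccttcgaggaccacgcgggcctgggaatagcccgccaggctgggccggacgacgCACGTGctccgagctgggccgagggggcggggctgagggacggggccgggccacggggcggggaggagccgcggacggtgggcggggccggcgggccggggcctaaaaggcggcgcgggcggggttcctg
SLC3A2, chr11:62881449-62881698, plus strand: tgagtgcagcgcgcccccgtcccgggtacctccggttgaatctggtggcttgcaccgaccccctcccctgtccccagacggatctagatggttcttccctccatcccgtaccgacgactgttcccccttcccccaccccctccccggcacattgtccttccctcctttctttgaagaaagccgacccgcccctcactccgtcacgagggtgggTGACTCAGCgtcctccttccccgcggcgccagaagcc
SLC7A1, chr13:29595689-29595938, minus strand: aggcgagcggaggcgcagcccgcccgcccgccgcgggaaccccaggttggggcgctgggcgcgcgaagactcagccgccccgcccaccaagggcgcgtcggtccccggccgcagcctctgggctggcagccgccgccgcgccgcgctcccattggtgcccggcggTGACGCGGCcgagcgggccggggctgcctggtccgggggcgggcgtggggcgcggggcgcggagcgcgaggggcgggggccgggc
SLC1A5, chr19:46787294-46787543, minus strand: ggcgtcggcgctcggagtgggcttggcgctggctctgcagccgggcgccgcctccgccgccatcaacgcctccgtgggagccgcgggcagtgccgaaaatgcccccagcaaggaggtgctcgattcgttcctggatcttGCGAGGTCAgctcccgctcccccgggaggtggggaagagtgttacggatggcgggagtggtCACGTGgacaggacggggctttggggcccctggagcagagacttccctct
SLC1A5, chr19:46784815-46785064, minus strand: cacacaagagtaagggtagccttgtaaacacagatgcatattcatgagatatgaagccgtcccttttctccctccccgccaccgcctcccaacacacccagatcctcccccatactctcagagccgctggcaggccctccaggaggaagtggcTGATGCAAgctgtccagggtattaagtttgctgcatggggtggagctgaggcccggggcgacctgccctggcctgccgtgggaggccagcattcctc
SLC43A1, chr11:57515703-57515952, minus strand: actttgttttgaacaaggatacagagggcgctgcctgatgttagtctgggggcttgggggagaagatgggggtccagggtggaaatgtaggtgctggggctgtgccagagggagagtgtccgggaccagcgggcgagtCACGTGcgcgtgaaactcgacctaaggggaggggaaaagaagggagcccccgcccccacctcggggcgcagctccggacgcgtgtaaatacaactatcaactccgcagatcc
In these, the SLC7A5 promoter held an E-box at 130 bases before the start, the SLC3A2 promoter an antioxidant core (TGACTCAGC) at 37 bases before, the SLC7A1 promoter another (TGACGCGGC) at 85 bases before, and the promoter windows of SLC1A5 an antioxidant core on the other strand with an E-box in the first shown, and the ATF4 element (TGATGCAA) in the second. The SLC43A1 promoter held an E-box at 112 bases before the start, and SLC7A5 also had an antioxidant core (TGACGCAGC) that begins 2 bases before its start and so is not in capitals. SLC7A11 had no window in the table used here. The ATF4 element was in 5 of the 16 windows, for SLC3A2, SLC7A1, SLC38A1, SLC1A4 and SLC1A5, against 3.62% of 35116 windows of all genes. Only that of SLC1A5 lay wholly before a start. Those of SLC3A2 and SLC7A1 began 38 and 8 bases after it, and those of SLC38A1 and SLC1A4 ran across it. The antioxidant core was in 4 of 16, against 13.3% of all windows, and the E-box in 3 of 16, against 7.26%. The ATF4 element was thus found in genes with the 12 h step and in genes without it (SLC38A1 and SLC1A4), and not in the single SLC7A5 window. Bases outside these windows were not searched, and a link between any of these elements and the step was not tested. A match of letters is a description of the sequence and is no measured site.

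Next the courses were tested over all 16 arrays with limma, by a cubic curve in hours fitted to every tested probe. The signal depended on time for 6 of the 13 transporter probes, where 51.3% of all tested probes did, a share of the transporters close to the background. Time-dependent were SLC7A5 (adjusted p = 0.00100), SLC6A9 (9.57e-06), SLC38A1 by both probes (0.0352 and 0.00974), SLC7A11 (0.0222) and SLC1A4 (0.0477). The count was 10 without the array at 0 h and 12 with array weights. The shares of all tested probes under these settings were not recorded, so these counts cannot be set against a background. The 3 probes of SLC3A2 were not past the threshold with adjusted p of 0.0657, 0.0735 and 0.179. A course of 4 set levels and a common line, added after the data were seen, called 9 of the 13 probes where it called 45.5% of all tested probes. The probes it called included those of SLC7A5, SLC3A2 and SLC1A5, the last with an adjusted p of 0.0878 by the cubic. The sets and the 12 h high had been noticed in these same arrays. This course therefore describes the high and cannot serve as a test of it.

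The linear change over 45 h, the fitted straight-line part of the cubic, fell for 4 of the 13 probes, where 21.7% of all tested probes fell. SLC7A11 changed by -1.45 ± 0.38 (log2, SE; adjusted p = 0.00408) and SLC7A5 by -1.20 ± 0.29 (adjusted p = 0.00182), 2.73-fold and 2.29-fold over the course. Without background correction SLC7A11, detected on 11 arrays, changed by -0.55 (adjusted p = 0.00567) and SLC7A5 by -1.18. SLC1A4 changed by -0.72 ± 0.26 (adjusted p = 0.0308), or -0.26 without background correction, a call that was lost without the array at 0 h (adjusted p = 0.139), 3 h (0.126), 9 h (0.0573) or 42 h (0.0650). The dimmer of the SLC38A1 probes, ILMN_2266948, changed by -0.69 ± 0.17 (adjusted p = 0.00211), while the brighter one changed by -0.04 ± 0.10 (adjusted p = 0.759). The 2 probes of SLC38A1 correlated at r = 0.12 over the 16 time points, so no single course could be given for this gene.

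SLC6A9 was the single transporter with a rising linear change, 0.80 ± 0.13 (adjusted p = 2.86e-05), of 13 probes, where 26% of all tested probes rose. SLC7A1 at -0.39 ± 0.18 (adjusted p = 0.0935), SLC1A5 at 0.19 ± 0.18 (0.401), SLC43A1 at -0.11 ± 0.29 (0.783), SLC38A2 at -0.03 ± 0.11 (0.818) and SLC3A2 at -0.13 ± 0.27 (0.726) did not pass. SLC7A1 did pass without the array at 6, 9 or 45 h (adjusted p = 0.0394, 0.0157 and 0.0322). The course bent away from a line for 3 of the 13 probes, against 19.3% of all tested probes, namely SLC6A9 (adjusted p = 0.00204), SLC7A5 (0.0299) and the brighter SLC38A1 probe (0.0412). This count was 7 without the array at 0 h, 5 without 9 h and 1 without 3, 15 or 18 h, again with no share of all tested probes recorded.

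With the set of 4 arrays as a factor, so that only changes within sets counted, 0 of 13 probes rose and 0 fell, where 0.422% of all tested probes rose and 0.478% fell. SLC7A5 gave -1.94 ± 0.52 (adjusted p = 0.0825) and SLC1A5 -1.35 ± 0.38 (adjusted p = 0.0981) in this fit, the latter with the sign opposite to that of the cubic. As with all changes given here with sets as a factor, these are slopes within sets scaled to 45 h. Their size is no observed change, and SLC7A5 differed by -0.80 between 0 and 45 h. At an unadjusted p under 0.05 this limma fit with sets had 0 rising and 6 falling transporter probes, those of SLC7A5, SLC7A1, SLC1A5 and SLC43A1 and 2 of SLC3A2. The share of all tested probes at this unadjusted threshold was not recorded. This count, and the other unadjusted counts below, therefore cannot be set against a background. A step between 21 and 24 h added to the cubic also left 0 rising and 0 falling.

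**Figure D3:**
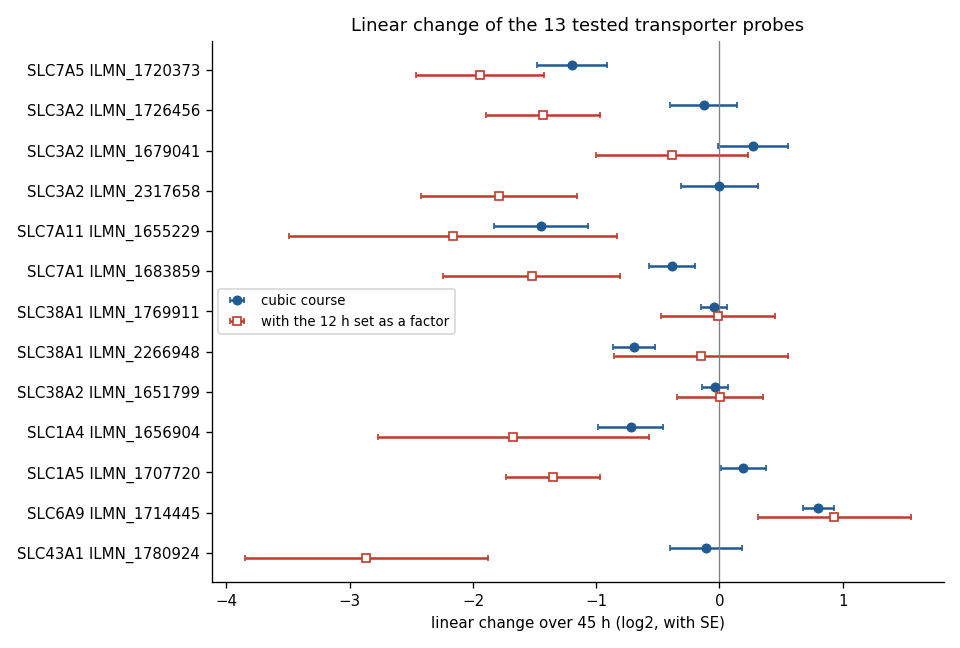
Linear change over 45 h (x axis, log2, bars are 1 SE) for each of the 13 tested transporter probes (y axis), from the cubic course (filled circles) and with the set of 4 arrays as a factor (open squares). The open squares are slopes within sets scaled to 45 h. SLC6A9 lies to the right at 0.80 and SLC7A5 and SLC7A11 to the left at -1.20 and -1.45 by the cubic, and the bars are wider in the fit with sets.

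**Figure D4:**
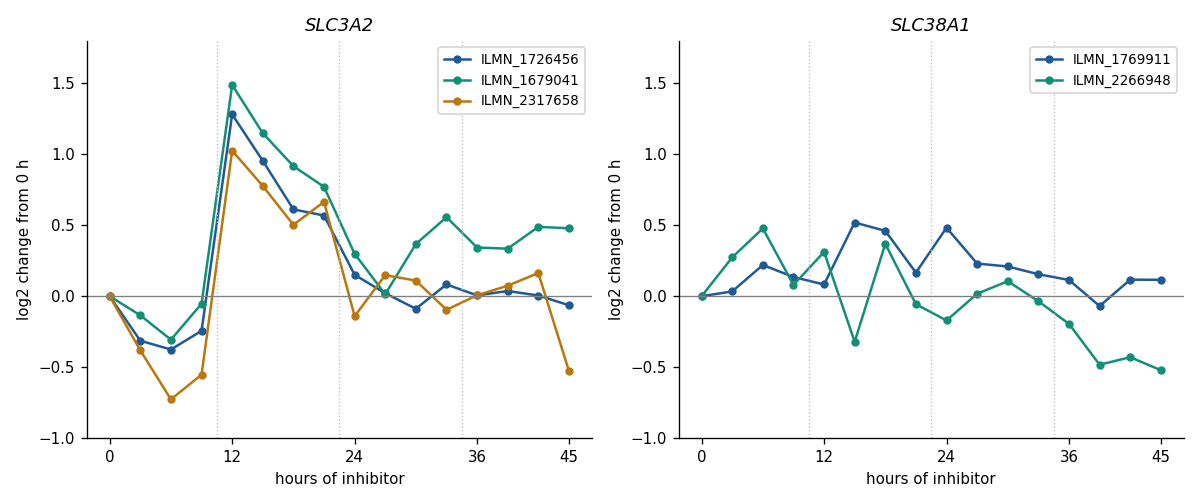
Log2 change from 0 h (y axis) against hours of inhibitor (x axis) for the 3 probes of SLC3A2 (left) and the 2 of SLC38A1 (right), 1 array per point, with dotted lines between the sets of arrays. The SLC3A2 probes follow one another through the 12 h high, and the SLC38A1 probes do not, with the dimmer one 0.52 below and the brighter one 0.12 above its 0 h value at 45 h.

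The 2 subunits of LAT1 were then set against each other. On each array the log2 value of SLC7A5 minus that of SLC3A2 was 0.32, 0.57, 0.27 and 0.20 from 0 to 9 h, 0.25, 0.32, 0.30 and 0.04 from 12 to 21 h, and 0.02, -0.06, -0.12 and -0.13 from 24 to 33 h. From 36 to 45 h it was -0.54, -0.62, -0.59 and -0.42, so each of the last 4 arrays lay below the other 12. The linear change of SLC7A5 was lower than that of SLC3A2 by a difference of -1.07 ± 0.11 (log2, SE; permutation test over the 16 time points, two-sided, p = 1e-05, the smallest that the resamples can give; adjusted p = 6e-05 over 6 pairs). Within sets the difference was -0.51 ± 0.38 (adjusted p = 0.972 by permutation within sets), so the divergence was not resolved within sets.

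**Figure D5:**
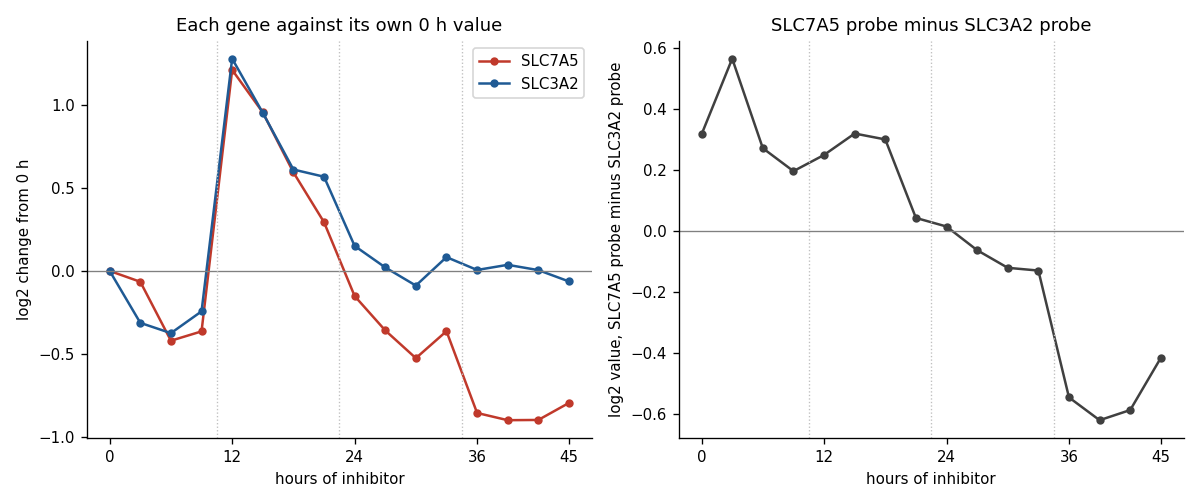
Left, log2 change from 0 h (y axis) of SLC7A5 and SLC3A2 against hours of inhibitor (x axis), 1 array per point. Right, the log2 value of the SLC7A5 probe minus that of the SLC3A2 probe on the same array, where only the change with time has a meaning. Both genes share the 12 h high, and against their 0 h values SLC7A5 ends at -0.80 and the SLC3A2 probe drawn, its brightest, at -0.06.

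The same comparison was made for 5 other pairs. SLC7A11 also declined against its partner SLC3A2, by -1.32 ± 0.27 (permutation test, adjusted p = 0.00402), but without background correction this was -0.43 (adjusted p = 0.195). SLC7A5 and SLC7A11, the transport subunits that share SLC3A2, differed by 0.25 ± 0.26 (permutation test, adjusted p = 0.616). SLC7A5 minus SLC43A1 gave -1.09 ± 0.25 (permutation test, adjusted p = 0.0260), past the threshold except without the array at 36 h (adjusted p = 0.0511) or 39 h (0.0639), and 0.92 ± 0.90 with sets as a factor. SLC43A1 was detected on 3 arrays, so this difference follows SLC7A5's own change and says little of SLC43A1. SLC1A4 against SLC1A5 gave -0.92 ± 0.36 (permutation test, adjusted p = 0.0841) and passed without the array at 12 h (adjusted p = 0.0463) or 45 h (0.0294). SLC38A1, by its brighter probe, and SLC38A2 differed by -0.01 ± 0.15 (permutation test, adjusted p = 0.947). The dimmer SLC38A1 probe, which had a different course, was not compared. With sets as a factor 0 of the 6 pairs passed, and 0 had an unadjusted permutation p under 0.05.

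Among the transporters themselves the closest courses were those of SLC1A5 and SLC3A2 (r = 0.87), SLC3A2 and SLC7A5 (0.83), SLC7A1 and SLC7A11 (0.78) and SLC7A11 and SLC7A5 (0.77), each over 16 time points read on the same arrays. Of 10366 other genes detected on all arrays, those with a course most like that of SLC7A5 were PSAT1, an enzyme of serine synthesis (r = 0.97), PCK2, the mitochondrial phosphoenolpyruvate carboxykinase (0.96), and C1QDC2 (0.94). For SLC7A11 they were ASNS, which makes asparagine (0.93), FLJ36070 (0.92) and MED19 (0.91). For SLC3A2 they were RBCK1 (0.96), AHR (0.92) and DNAJB6 (0.91), and for SLC1A5 the tRNA synthetases GARS (0.90) and YARS (0.89) and DEPDC6 (0.89). SLC7A1 was closest to PPP3CB (0.89), CBS (0.88) and PRNP (0.86), and SLC6A9 to ZNF285A (0.96), CLDN15 (0.96) and ZNF211 (0.95). The nearest genes of the others were NBPF20, C4orf18 and SRGAP1 for SLC38A1 (0.78 to 0.79), KCNS3, RNF31 and HLA-F for SLC38A2 (0.86), ATP7B and PLEKHO1 for SLC1A4 (0.85 to 0.86), and ZBED4, PPP2R5E and LTBR for SLC43A1 (0.81 to 0.88).

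The other amino acid transporters were examined by the same measures. Of 41 listed genes 35 had a probe and 20 were tested, and 0 of these 20 were at least 2-fold higher at 12 h than at 9 h, against 1.16% of all tested probes. By the linear change 2 rose and 6 fell, where 26% of all tested probes rose and 21.7% fell, and the median over the 20 was -0.10, against 0.05 over all tested probes. The genes that fell most were SLC43A3 (-1.94 ± 0.14), SLC36A4, a lysosomal and plasma membrane carrier of proline and tryptophan (-1.62 ± 0.16), and SLC6A18 (-1.17 ± 0.21). Of these, SLC43A3 was listed for its gene family and not for a shown amino acid substrate. The rises were SLC7A8, the LAT2 subunit that also pairs with SLC3A2 (0.87 ± 0.12), and SLC38A5 (0.69 ± 0.26). Of SLC7A8 the log2 value was 9.23 at 0 h, 10.19 at 42 h, its highest, and 9.64 at 45 h. Its linear change had the sign opposite to that of SLC7A5, though the difference of those 2 genes was not tested. With sets as a factor 0 of the 20 rose and 0 fell (limma; 1 and 1 at an unadjusted p under 0.05, with no share of all tested probes recorded).

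Of the 17 tested regulators of transporter genes 8 rose and 2 fell, where 26% of all tested probes rose and 21.7% fell, with a median linear change of 0.29. With a step between 21 and 24 h in the fit 0 rose. The rises were led by DDIT3 (0.94 ± 0.16), ATF3 (0.90 ± 0.14) and ATF4 (0.71 ± 0.13), all stress-response factors, and ATF5 (-0.77 ± 0.16) was among the falls. ATF4 read 15.12 at the start and 15.29 at 9 h, was highest with 15.88 at 12 h and stayed at 15.53 to 15.77 thereafter. Its signals were 22960 to 64010, the highest of them not far below the brightest signals of the arrays. A link between its course and those of the transporters was not tested. MYC read 11.06 before the inhibitor, 8.17 after 3 h, then 9.15 and 10.40 at 9 and 12 h, and was the single regulator at least 2-fold higher at 12 h than at 9 h. Its linear change of -0.47 ± 0.49 (adjusted p = 0.459) did not pass. With sets as a factor 0 regulators rose and 1 fell by limma, where 0.422% of all tested probes rose and 0.478% fell. At an unadjusted p under 0.05 these counts were 2 and 2, with no share of all tested probes recorded.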

How the data were processed

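Total RNA of 16 SUM-225 cultures was measured on Illumina bead arrays. The authors deposited linear signal intensities, neither background-corrected nor normalized, with a detection p-value for each probe and array. Scanning software and array annotation are not given in the sources used here. The transporters and gene lists were chosen with earlier results of these data known.

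Signals were background-corrected with limma 3.58.1 in R 4.3.3 (normexp with negative controls inferred from the detection p-values, offset 16), quantile-normalized and converted to log2. Array medians were 242 to 384 before this, and the single array per time point limits the precision. Probes with a detection p-value under 0.05 on at least 3 arrays were tested, 16110 of 24526. A cubic in hours was fitted to each, with moderated tests of the whole course, its linear part and its curvature, and Benjamini-Hochberg adjustment over all tested probes at 0.05. SEs are the spread around the fitted curve, since no replicates exist. Pairs were compared by permuting time points (100000 resamples). The brightest probe stood for a gene. Every transporter probe is named; of each list the 3 largest rises and falls past the threshold are named, MYC and SLC7A8's course having been chosen after their values were seen, and for each transporter the 3 other genes with the highest correlation. A few genes that these rules would name are not reported here. List symbols were matched to the array by name or older name, 156 of 173. The fit was tested on simulated data.

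The alternatives were no background correction, an offset of 50, median scaling, cyclic loess, 2 other filters, other curves, a step between 21 and 24 h, the sets as a factor, array weights and each array left out.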

Additional observations from a re-analysis of the deposited data

How the results depend on the processing

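No paired analysis was possible because no hour had a second array. Of 742 recomputed values 636 had the same direction and call (or, for counts, moved by under 1.5 times), 28 turned sign, 18 lost and 6 gained a call and 54 moved. Time-dependent transporter probes, 6 in the report, were 12 with array weights, 0 by the line with sets as a factor, and 4 to 10 with each array left out, the 10 without 0 h. Falling probes, 4 in the report, were 2 among probes detected on all 16 arrays, as the dim ones were not tested, 0 with a step at 21 to 24 h and 0 with sets as a factor, and the rising probe became 0 in both. Departures from a straight line, 3 in the report, were 8 with array weights and 1 to 7 with each array left out (7 without 0 h, 5 without 9 h, 1 without 3, 15 or 18 h). Other transporters rising, 2 in the report, were 1 with cyclic loess, 1 with the step and 0 with sets, and those falling, 6 in the report, were 3 with the step and 0 with sets (1 rising and 1 falling at an unadjusted p under 0.05 by limma). The shares of all tested probes called under the changed settings were not recorded, except with sets at the adjusted threshold. A count that grew or shrank here may therefore have done so over all tested probes.

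Linear changes that turned sign were, with the step, SLC3A2 at 1.08 and 1.74 (ILMN_1726456 and ILMN_2317658), SLC7A11 at 0.28 and SLC38A2 at 0.57; with sets, SLC3A2 ILMN_1679041 at -0.38, SLC38A2 at 0.0060 and SLC1A5 at -1.35; with array weights, SLC3A2 at 0.035 and 0.27 and SLC38A2 at 0.11; and with median scaling SLC3A2 ILMN_2317658 at 0.0098. None of these passed the threshold. With each array left out, the SLC3A2 probes ranged from -0.32 to 0.058 (ILMN_1726456) and -0.23 to 0.25 (ILMN_2317658), SLC38A1 ILMN_1769911 from -0.13 to 0.024, SLC1A4 from -0.93 to -0.57 and SLC7A1 from -0.56 to -0.30. SLC7A5 (-1.39 to -1.01), SLC7A11 (-1.67 to -1.25), SLC6A9 (0.61 to 0.90) and SLC38A1 ILMN_2266948 (-0.83 to -0.62) passed the threshold without any single array.

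The SLC7A5 and SLC7A11 difference was -0.62 without background correction and -0.12 with an offset of 50. SLC7A11 minus SLC3A2 was -0.43 without background correction and -0.73 with sets, SLC7A5 minus SLC3A2 -0.51 with sets, and SLC7A5 minus SLC43A1 0.92 with sets. With each array left out, SLC1A4 minus SLC1A5 ranged from -1.23 to -0.66, SLC38A1 minus SLC38A2 from -0.078 to 0.055, and SLC7A5 minus SLC43A1 from -1.32 to -0.93. The causes were not tested. The median linear change over all tested probes lay between 0.0027 (cyclic loess) and 0.09 (step). Low signal limits SLC7A11, SLC1A4 and SLC43A1.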

Other observations

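Enzymes that make or use the carried amino acids were described by the same linear change, by which 26% of all tested probes rose and 21.7% fell. With the sets as a factor 0 rose and 0 fell in each of the 5 enzyme lists below (limma; 6 and 8 in all, counting PSAT1 once in each of its lists, at an unadjusted p under 0.05). For the unadjusted counts no share of all tested probes was recorded. Of 10 tested serine and glycine enzymes 1 rose and 7 fell by the linear change, with a median of -0.68. GLDC, the glycine decarboxylase, changed by -1.69 ± 0.36 (log2, SE), PSAT1 by -1.41 ± 0.30 and PSPH, which releases serine, by -1.25 ± 0.24, while AMT of the glycine cleavage system changed by 1.37 ± 0.33. PSAT1 and AMT were at least 2-fold higher at 12 h than at 9 h, and the median step over the 10 was 0.04. At 0, 9, 12 and 36 h PSAT1 read 12.25, 11.52, 13.13 and 11.02, and ASNS, the asparagine synthetase, read 13.84, 12.60, 14.19 and 12.19. Of 15 tested glutamine, glutamate and asparagine enzymes 3 rose and 5 fell. GLUL, which makes glutamine (1.27 ± 0.18), GLUD1 (0.80 ± 0.12) and GFPT1 (0.23 ± 0.09) rose, and ASNS (-1.53 ± 0.30), PSAT1 and the glutaminase GLS2 (-0.90 ± 0.21) fell most.

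Of 11 tested arginine and polyamine enzymes 3 rose and 5 fell. SAT1, which breaks polyamines down, changed by 1.85 ± 0.09, and OAT by 0.81 ± 0.09. Of the enzymes of polyamine synthesis SMS changed by 0.29 ± 0.09, and ODC1, SRM and AMD1 changed by -2.08 ± 0.15, -1.37 ± 0.16 and -1.08 ± 0.21. ODC1 had no high at 12 h, where it read 10.35 against 10.31 at 9 h and 11.94 at 0 h. Of 9 enzymes of branched-chain amino acid metabolism, a regulating kinase included, 5 rose and 1 fell. The rises, that kinase among them, were led by BCKDHB (0.92 ± 0.11), BCKDHA (0.78 ± 0.10) and MCCC1 (0.65 ± 0.10), and the fall was IVD (-0.55 ± 0.19). Of 10 glutathione and cysteine enzymes CTH rose (0.66 ± 0.16) and CBS (-1.16 ± 0.24) and GSS (-0.87 ± 0.10) fell.

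Of 23 genes of amino acid sensing by mTORC1 8 rose and 3 fell, against the same shares of 26% and 21.7% of all tested probes. RRAGD, a Rag GTPase of the lysosome, changed by 1.96 ± 0.10 and was the single rise that also passed with the sets as a factor (adjusted p = 0.0174). LAMTOR2 (0.84 ± 0.09) and TSC1 (0.74 ± 0.09) followed it, and SEH1L (-0.75 ± 0.11), LARS1 (-0.58 ± 0.11) and NPRL3 (-0.56 ± 0.07) fell. Of the epithelial markers KRT18 (-0.74 ± 0.10) and KRT8 (-0.68 ± 0.10) fell, and of the markers of other cells CD14 rose (0.34 ± 0.14, adjusted p = 0.0499).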
